A study of Homo sapiens with 6 samples.

Results

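Open chromatin was examined at 9 death-related genes for which the study lists PCR primers: GADD45A, RHOB, CDKN1B, JAK2, LRP6, RAPGEF2, OPTN, PPARG and GATA6. The paper describes choosing the death-related genes it probed for raised transcripts in MyoD-deleted cells, no MyoD binding peak and a CpG island. The list is therefore no independent evidence of a direction or of MyoD binding. ATAC-seq, which reads open chromatin from the places where the Tn5 transposase can insert sequencing adapters, had been carried out on the fusion-positive rhabdomyosarcoma line RH30. Of the 6 libraries, 3 came from vector cells (Cas9 with a scramble guide) and 3 from MyoD-deleted cells (Cas9 with guides against MyoD), each group labelled as biological replicates 1 to 3. Both groups thus carried Cas9 and a guide, and whether the MyoD-deleted libraries came from 1 clone, several clones or an unselected pool is not given in the sources used here. The labels and the ATAC-seq methods name RH30, while part of the study's text names RH30 cells with an IκBα super repressor, and the labels are followed here. Overlapping peaks of the 6 lists were merged into 105572 regions, and each region was given to whichever protein-coding gene begins nearest to its top summit (GENCODE version 44, hg38). The 9 genes received 121 of the 105572 regions: GADD45A 34, RHOB 24, RAPGEF2 24, OPTN 15, LRP6 8, CDKN1B 6, GATA6 6, JAK2 3 and PPARG 1. Nearest position does not show that a region acts on that gene.

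Death genes of this kind work at several levels of the stress response. GADD45A is a stress sensor induced by DNA damage, RHOB is a small GTPase of endosomes induced by genotoxic stress, and CDKN1B (p27) arrests the cell cycle by inhibiting cyclin-dependent kinases. JAK2 is the kinase of cytokine receptors, LRP6 a Wnt co-receptor, RAPGEF2 an exchange factor that activates Rap GTPases, and OPTN an autophagy receptor, while PPARG and GATA6 are transcription factors of the nuclear receptor and GATA families. MyoD is the basic helix-loop-helix factor of skeletal muscle and binds E boxes, best known for the core CAGCTG, and also CAGGTG. AP-1 factors bind the heptamer TGACTCA, which reads TGAGTCA on the opposite strand, and the muscle and Hippo pathway TEAD factors bind GGAATG.

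Summit sequences are printed first, because the height changes below can be read against them. For each gene they show the region with the largest height change among those past the threshold by both measures, where there was one. They also show its tallest gained or lost region, where there was one. For GADD45A the tallest of these lay over an untranslated exon and is not shown, so its other lost region is given. Each window is the 201 bases centred on the top summit (hg38, plus strand, 5′ to 3′), in lower case with every match to either E box, to AP-1 or to the TEAD letters in capitals. Both strands were searched, so CATTCC marks a TEAD match and CACCTG the second E box on the opposite strand. The first of these regions was lower in MyoD-deleted libraries, and the other 3 were called only in vector libraries:
RHOB, chr2:20411284-20411484: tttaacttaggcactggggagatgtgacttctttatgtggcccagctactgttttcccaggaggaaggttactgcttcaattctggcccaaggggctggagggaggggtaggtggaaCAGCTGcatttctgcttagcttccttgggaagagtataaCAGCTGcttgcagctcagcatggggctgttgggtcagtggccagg
GADD45A, chr1:67566947-67567147: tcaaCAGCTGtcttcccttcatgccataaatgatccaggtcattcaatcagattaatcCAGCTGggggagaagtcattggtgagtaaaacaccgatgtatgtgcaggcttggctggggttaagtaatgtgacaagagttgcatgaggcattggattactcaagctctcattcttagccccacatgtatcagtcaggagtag
RAPGEF2, chr4:160129590-160129790: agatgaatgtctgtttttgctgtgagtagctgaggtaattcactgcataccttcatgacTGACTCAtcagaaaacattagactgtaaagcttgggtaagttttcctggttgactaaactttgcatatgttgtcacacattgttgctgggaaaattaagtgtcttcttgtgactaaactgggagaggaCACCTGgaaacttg
JAK2, chr9:4979350-4979550: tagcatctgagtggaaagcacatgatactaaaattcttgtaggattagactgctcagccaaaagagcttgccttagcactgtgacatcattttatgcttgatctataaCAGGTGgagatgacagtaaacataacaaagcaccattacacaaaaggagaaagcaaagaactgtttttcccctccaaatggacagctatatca

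The RHOB window held 2 CAGCTG, starting 17 and 56 bases to the right of the summit. The GADD45A window also held 2 CAGCTG, the JAK2 window 1 CAGGTG starting 8 bases right of the summit, and the RAPGEF2 window a CAGGTG and an AP-1 match. The next 3 regions were higher in MyoD-deleted libraries, and the last 3 were called only there:
GADD45A, chr1:67570567-67570767: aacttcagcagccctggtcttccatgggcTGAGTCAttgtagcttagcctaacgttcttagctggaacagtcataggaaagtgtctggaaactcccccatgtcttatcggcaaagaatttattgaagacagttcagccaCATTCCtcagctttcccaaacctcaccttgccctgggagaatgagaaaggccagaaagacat
RAPGEF2, chr4:159390755-159390955: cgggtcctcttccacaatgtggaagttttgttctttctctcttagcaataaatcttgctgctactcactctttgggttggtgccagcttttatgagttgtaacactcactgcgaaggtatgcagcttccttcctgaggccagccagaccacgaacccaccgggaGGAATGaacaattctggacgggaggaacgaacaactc
CDKN1B, chr12:12672297-12672497: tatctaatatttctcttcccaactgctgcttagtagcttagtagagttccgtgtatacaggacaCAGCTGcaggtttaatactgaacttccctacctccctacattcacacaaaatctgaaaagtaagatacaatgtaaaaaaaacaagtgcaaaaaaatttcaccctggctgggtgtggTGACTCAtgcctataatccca
PPARG, chr3:12227938-12228138: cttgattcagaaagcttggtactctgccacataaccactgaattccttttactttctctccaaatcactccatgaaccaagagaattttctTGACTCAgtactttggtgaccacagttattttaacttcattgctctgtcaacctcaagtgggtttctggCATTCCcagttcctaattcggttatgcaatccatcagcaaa
OPTN, chr10:13087993-13088193: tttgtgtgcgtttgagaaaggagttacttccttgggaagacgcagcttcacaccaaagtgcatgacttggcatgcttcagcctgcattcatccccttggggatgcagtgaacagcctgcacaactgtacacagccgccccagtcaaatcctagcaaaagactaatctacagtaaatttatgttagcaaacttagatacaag
LRP6, chr12:12194347-12194547: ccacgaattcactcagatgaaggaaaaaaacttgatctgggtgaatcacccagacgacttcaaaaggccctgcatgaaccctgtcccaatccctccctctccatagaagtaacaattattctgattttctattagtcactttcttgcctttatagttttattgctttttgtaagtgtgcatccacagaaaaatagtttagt

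The GADD45A and PPARG windows each held an AP-1 and a GGAATG match, the AP-1 match of PPARG starting 9 bases left of the summit. The RAPGEF2 window held GGAATG alone, and the CDKN1B window a CAGCTG and an AP-1 match. The OPTN and LRP6 windows held none of these letters. A match of this length is a description of the window and not evidence that a factor was bound.

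The libraries held 63140 to 74121 peaks in the vector group and 73745 to 80608 in the MyoD-deleted group. Their read depth is not in the lists. The summit height of a region is the number of fragments piled up at its highest peak, divided by the smallest background of its library, and is given here as times the height of the median region shared by all 6 libraries. A region called in no peak of a library has no value there, which is not a height of 0. The lowest called peak of a library stood at 0.118 to 0.143 times the median. At the targeted gene, the MYOD1 region over the 5′ end (chr11:17719004-17720574) was at 6.73, 7.14 and 7.67 in vector and 4.41, 5.65 and 5.38 in MyoD-deleted libraries, so that the groups did not overlap (log2 change −0.49, SE 0.10, limma adjusted p = 0.0021). Its fold enrichment rank did not pass (adjusted p = 0.408), and the peak lists cannot show the edited bases. Of 12 myogenic or rhabdomyosarcoma marker genes, 11 had a region within 1 kb of the 5′ end in all 6 libraries, all but TFAP2B. The same held for 0 of 6 epithelial, 0 of 6 blood and 0 of 5 endothelial markers. Of these, 2 epithelial, 4 blood and 4 endothelial markers had no region, and the others had one, though not there in every library. In a bulk library, fewer cells with an open site and a less open site in every cell cannot be told apart.

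Regions called in all 6 libraries were compared between the groups by summit height and by the rank of fold enrichment over local background, and an adjusted p under 0.05 counted as higher or lower. Among the 51 such regions of the 9 genes, 7 (13.7%) were higher by height in MyoD-deleted libraries, where 11.4% of all 47885 shared regions were. Another 10 (19.6%) were lower, against 12.8% of all shared regions. By rank, 3 (5.88%) were higher, against 4.12%, and 4 (7.84%) lower, against 4.67%, and these 7 were also called by height. The values of all MyoD-deleted libraries lay above those of all vector libraries in 10 regions (19.6%, against 19.8%) and below them in 11 (21.6%, against 18.1%). The median log2 change of the 51 regions was −0.05, against 0.04 over all shared regions. These shares rest on few regions and were not tested against the background, and the data are given gene by gene. The count higher by height was 3 without MyoD-deleted replicate 1 and 4 without MyoD-deleted replicate 3, and the counts by rank were as low as 1 higher and 2 lower, both without vector replicate 2 or MyoD-deleted replicate 2. Without centring the libraries on their median, which differed by 0.192 on the log2 scale between the groups, the split was 11 higher and 6 lower.

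**Figure D1:**
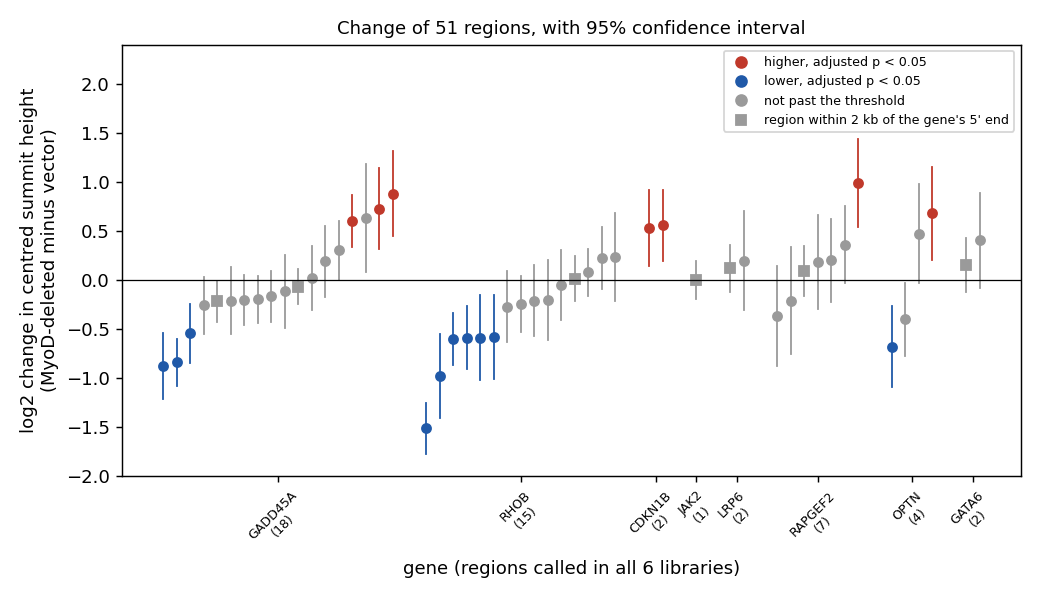
Log2 change in centred summit height, MyoD-deleted minus vector, for the 51 regions called in all 6 libraries, grouped by gene on the x axis with the number of regions in brackets; points are limma estimates from 3 libraries a group, bars are 95% confidence intervals, and squares are regions within 2 kb of a 5′ end. The 7 squares lie between −0.22 and 0.15, whereas the 17 coloured points past the threshold lie at 10.4 kb or more from the 5′ end.

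The regions at the 5′ ends were open in both groups and did not pass the test. Within 2 kb of the 5′ end, 6 of the genes had 7 regions called in all libraries, with log2 changes from −0.22 to 0.15, and in each of the 7 the groups overlapped. The confidence intervals of these 7 changes ran from −0.42 at the lowest to 0.43 at the highest. GADD45A had the tallest of them (chr1:67684556-67685735), at 9.43, 9.30 and 9.06 in vector and 8.34, 9.27 and 8.96 in MyoD-deleted libraries. The log2 change there was −0.07 (SE 0.08, adjusted p = 0.628). A second GADD45A region 1.51 kb into the gene, in intron 3 (chr1:67686069-67687285), was at 5.70, 5.38 and 4.95 against 4.31, 4.98 and 4.50, a change of −0.22 (adjusted p = 0.121).

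At JAK2 the start was at 5.70, 5.91 and 6.53 in vector and 5.95, 6.30 and 5.84 in MyoD-deleted libraries (chr9:4984384-4985635, adjusted p = 0.989). At LRP6 it was at 4.53, 5.98 and 6.18 against 6.26, 5.53 and 6.19 (chr12:12266410-12267882, adjusted p = 0.503). At RHOB it was at 4.72, 6.02 and 5.65 against 5.17, 5.17 and 6.19 (chr2:20446493-20447856, adjusted p = 0.944). These 3 genes could not be ordered, since their values overlapped. RAPGEF2, with a summit in its untranslated first exon, was lower at 1.99, 2.00 and 2.35 against 2.31, 2.42 and 2.03 (chr4:159102591-159104702, adjusted p = 0.634). GATA6 was at 1.80, 1.61 and 1.71 against 2.21, 1.82 and 1.71 (chr18:22169058-22170500, adjusted p = 0.44), which overlapped RAPGEF2. The signs of changes this close to 0 were not stable: those of JAK2, RHOB and LRP6 turned when single libraries were left out, and those of GADD45A and JAK2 without centring.

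The starts of OPTN and CDKN1B fell to neighbouring genes by the rule and are given for completeness. The region over both RefSeq starts of OPTN (chr10:13099145-13100697), nearer to a 5′ end of CCDC3, was at 3.28, 3.79 and 4.11 in vector and 3.91, 3.26 and 3.87 in MyoD-deleted libraries (log2 change −0.02, adjusted p = 0.94). GENCODE starts CDKN1B at 12685498, far upstream of the RefSeq start at 12717368, so the region over the latter (chr12:12716810-12718275) went to APOLD1. It was at 2.83, 2.39 and 2.89 against 3.07, 2.95 and 2.65 (log2 change 0.10, adjusted p = 0.594). PPARG, the adipogenic nuclear receptor, was the exception. None of its 6 RefSeq starts lay in a region of any library.

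All 17 regions called by height lay away from these starts, between 10.4 and 288 kb from the 5′ end, with 14 between protein-coding genes, 3 in introns of neighbouring genes and 0 in the gene they were assigned to. In 15 of the 17 the groups did not overlap. The 17 were picked by a test on these same heights, so this describes them and is no further support.

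**Figure D2:**
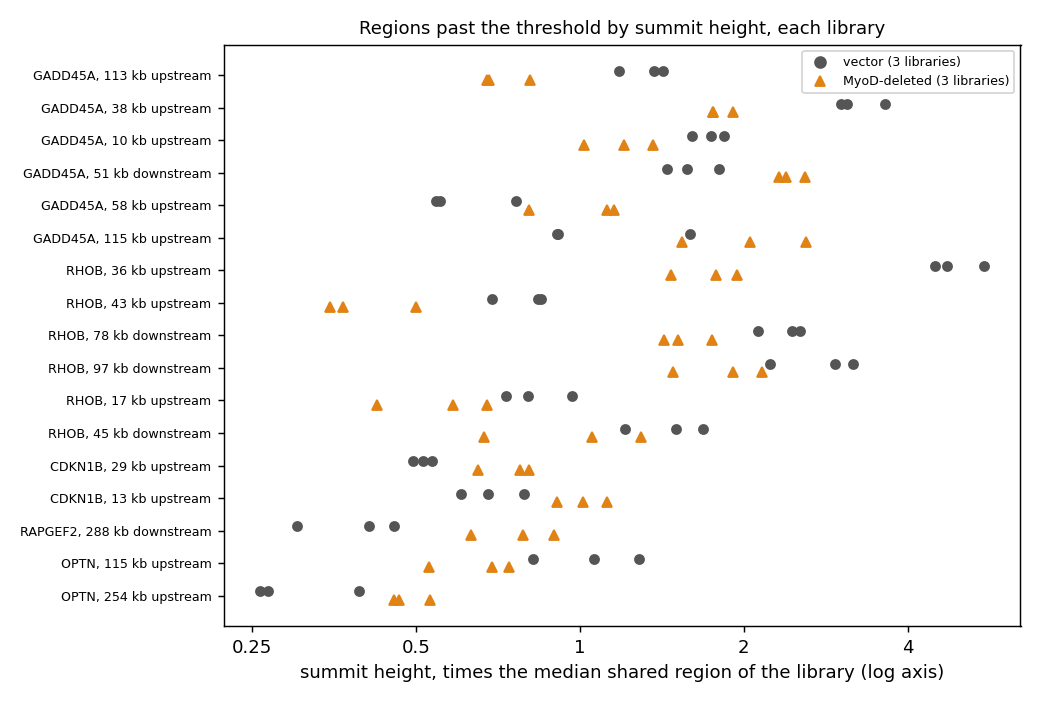
Summit height in each library, in times the median shared region of that library on a log axis, for the 17 regions past the threshold by height; grey circles are the 3 vector and orange triangles the 3 MyoD-deleted libraries, and each row gives the gene and the distance of the summit from its 5′ end. The region 36 kb upstream of RHOB shows the widest gap, from 4.48 or more in vector to 1.94 or less in MyoD-deleted libraries.

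RHOB was lower at distal regions on both sides of the gene. Of its 15 shared regions, 6 were lower, 0 were higher and 9 did not pass, with a median log2 change of −0.25. The tallest of its regions beyond 2 kb of the start (chr2:20410757-20411858, 35.7 kb upstream), whose sequence opens the first set above, was at 4.48, 4.71 and 5.53 in vector and 1.78, 1.47 and 1.94 in MyoD-deleted libraries. All vector values were thus above all MyoD-deleted values, and the height fell to 0.351 of its vector level (log2 change −1.51, SE 0.12, adjusted p = 5.52e-07). Its mean percentile by fold enrichment fell from 94.1 to 72.2 (rank adjusted p = 0.00643). This was the largest height change among the 51 regions.

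A second region 43.0 kb upstream of RHOB (chr2:20403648-20404406) was at 0.691, 0.839 and 0.848 against 0.5, 0.348 and 0.368. It too was lower by both measures (log2 change −0.98, adjusted p = 0.00171 by height and 0.0233 by rank), with no overlap. Downstream, a region at 77.9 kb (chr2:20524382-20525806) fell from 2.12, 2.54 and 2.45 to 1.43, 1.52 and 1.75 (log2 change −0.60, adjusted p = 0.00206, rank adjusted p = 0.16), and one at 96.6 kb (chr2:20543170-20544613) from 2.23, 3.18 and 2.94 to 1.91, 1.48 and 2.16 (log2 change −0.59, adjusted p = 0.00819, rank adjusted p = 0.886). These passed by height alone. The latter lost its call without vector replicate 2 (0.0697) or MyoD-deleted replicate 2 (0.0609).

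Another pair of RHOB regions passed only narrowly. At 17.3 kb upstream (chr2:20429477-20430214) the heights were 0.802, 0.732 and 0.970 against 0.586, 0.424 and 0.676 (log2 change −0.59, adjusted p = 0.0442, rank adjusted p = 0.0709), and at 45.3 kb downstream (chr2:20491943-20492631) 1.21, 1.5 and 1.68 against 1.05, 0.667 and 1.29, where the groups overlapped (log2 change −0.58, adjusted p = 0.0447, rank adjusted p = 0.265). Each lost its call in 4 of 6 omissions of a library, namely vector replicates 2 and 3 and MyoD-deleted replicates 1 and 2, with adjusted p up to 0.212 and 0.259. They also did not pass at a −log10 q of at least 5 (0.0528 and 0.055) or without centring (0.141 and 0.112). Between and beside these 6 regions, 8 further shared regions lay more than 2 kb from the start and changed by −0.27 to 0.24 without passing. The lower regions thus stood among others that did not pass. All 6 lower regions held CAGCTG within 100 bases of the summit, as did 3 of the 9 that did not pass. RHOB had neither a gained nor a lost region. Its 9 partly called regions included 3 called in more vector than MyoD-deleted libraries and 6 the other way. Of all partly called regions, 29.7% and 61.7% were so called.

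**Figure D3:**
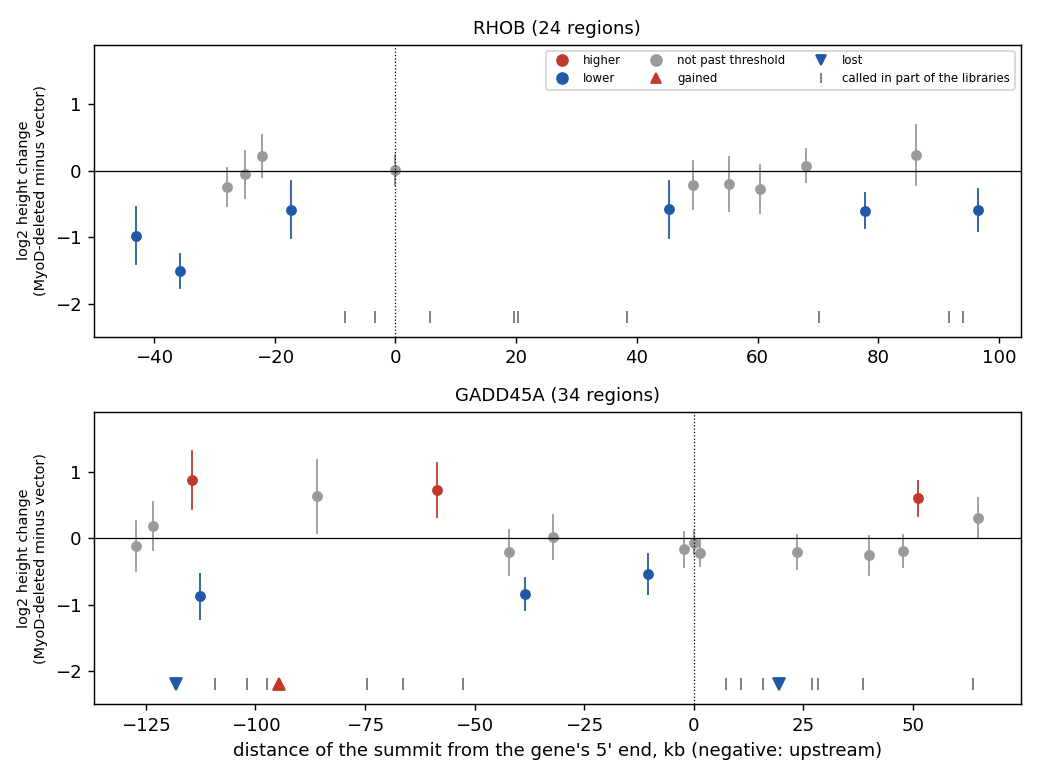
Log2 change in summit height, MyoD-deleted minus vector, with its 95% confidence interval, against the distance of the summit from the 5′ end in kb for RHOB (24 regions, top) and GADD45A (34 regions, bottom); symbols on the lower line mark regions called in part of the libraries, which have no change. RHOB has 6 lower regions and 0 higher, and GADD45A 3 of each.

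GADD45A changed in both directions. Of its 18 shared regions, 3 were higher, 3 were lower and 12 did not pass, with a median log2 change of −0.14. Far upstream, 2 regions less than 2 kb apart moved opposite ways. The first (chr1:67570157-67571123, 114.5 kb upstream) was at 1.59, 0.911 and 0.909 in vector and 2.05, 2.61 and 1.54 in MyoD-deleted libraries, with vector replicate 1 just above MyoD-deleted replicate 3. It rose by height (log2 change 0.88, SE 0.21, adjusted p = 0.00438), and its mean percentile rose from 10.2 to 50.3 (rank adjusted p = 0.00886). The second (chr1:67571954-67573060, 112.7 kb upstream) was at 1.37, 1.18 and 1.42 against 0.810, 0.682 and 0.676. It fell without overlap by height (log2 change −0.87, SE 0.16, adjusted p = 0.000624) and from percentile 26.3 to 2.41 by rank (adjusted p = 0.00984). The first held an AP-1 and a GGAATG match and no CAGCTG, and the second CAGCTG and CAGGTG.

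The remaining lower GADD45A regions were at 38.4 kb upstream (chr1:67646151-67647537), from 3.63, 3.02 and 3.09 to 1.76, 1.76 and 1.91, and at 10.4 kb upstream (chr1:67674304-67676390), from 1.84, 1.61 and 1.74 to 1.02, 1.36 and 1.21. In both, every vector library was above every MyoD-deleted one. The first passed by height (log2 change −0.84, adjusted p = 4.77e-05) and rank (0.0395). The second passed by height alone (−0.54, adjusted p = 0.00966), and not without MyoD-deleted replicate 1 (0.0649) or without centring (0.0998). The higher ones were at 58.5 kb upstream (chr1:67626110-67627448), from 0.765, 0.554 and 0.545 to 1.16, 1.12 and 0.809, and at 51.1 kb downstream in intron 2 of GNG12 (chr1:67736007-67736722), a G protein subunit gene, from 1.80, 1.45 and 1.58 to 2.4, 2.32 and 2.59. Neither overlapped between groups. The intronic region passed in every omission (log2 change 0.60, adjusted p = 0.0016), whereas the upstream one (0.73, adjusted p = 0.0108) did not pass without MyoD-deleted replicate 1 (0.0706) or 2 (0.0539).

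CDKN1B, the cell cycle inhibitor, had 2 shared regions and both were higher. At 13.1 kb upstream, in intron 3 of the receptor gene GPR19 (chr12:12671948-12672873), the heights were 0.790, 0.679 and 0.606 in vector and 1.12, 0.909 and 1.01 in MyoD-deleted libraries (log2 change 0.56, SE 0.17, adjusted p = 0.0246, rank adjusted p = 0.0441). At 29.4 kb upstream (chr12:12655761-12656540) they were 0.494, 0.536 and 0.515 against 0.776, 0.652 and 0.809 (log2 change 0.53, adjusted p = 0.0439, rank adjusted p = 0.541). Neither region overlapped between the groups. The gap between groups was small, however, and the first lost its call when vector replicate 2 or 3 or MyoD-deleted replicate 1 or 3 was left out (adjusted p up to 0.119), the second in 5 of 6 omissions, all but MyoD-deleted replicate 2 (up to 0.143). The region 0.532 kb upstream of the GENCODE 5′ end (chr12:12684532-12685489) was a small one called in 3 vector and 2 MyoD-deleted libraries. Inside the gene, a region nearest to GPR19 (chr12:12695981-12697135) passed by rank as lower (adjusted p = 0.0372) and not by height (log2 change −0.30, adjusted p = 0.167).

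RAPGEF2 lies in a stretch with few other protein-coding genes, and its regions reached 1251 kb from its 5′ end. Of its 7 shared regions 1 passed, at 287.8 kb downstream (chr4:159390427-159391263), from 0.457, 0.411 and 0.303 to 0.897, 0.788 and 0.632. The groups did not overlap, the height rose 1.99-fold (log2 change 0.99, SE 0.21, adjusted p = 0.00238) and the mean percentile went from 35.0 to 73.9 (rank adjusted p = 0.0179). The 5 other shared regions beyond 2 kb changed by −0.37 to 0.36 and did not pass. Of its 17 partly called regions, 13 were called in more MyoD-deleted than vector libraries and 3 in more vector libraries. Of all partly called regions, 61.7% and 29.7% were so called, and the difference was not tested.

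OPTN, the autophagy receptor, had 4 shared regions, with 1 higher and 1 lower. The higher one, 254 kb upstream (chr10:12844706-12845614), was at 0.259, 0.268 and 0.394 in vector and 0.466, 0.530 and 0.456 in MyoD-deleted libraries (log2 change 0.68, adjusted p = 0.0338). The lower one, 115 kb upstream in intron 2 of CCDC3 (chr10:12983522-12984852), was at 1.28, 0.821 and 1.06 against 0.690, 0.742 and 0.529 (log2 change −0.68, adjusted p = 0.0163). The groups did not overlap in either, yet neither passed by rank (adjusted p = 0.486 and 0.111). The higher one passed only when vector replicate 3 was the library left out (otherwise up to 0.127), and the lower one did not pass without vector replicate 3 (0.0538), without MyoD-deleted replicate 3 (0.0772) or without centring (0.0544).

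LRP6, JAK2 and GATA6 had no region past the threshold. The largest height change among shared regions of GATA6 was at 113 kb downstream (chr18:22282294-22283190), from 0.235, 0.232 and 0.212 to 0.328, 0.242 and 0.338, where the groups did not overlap (log2 change 0.41, 95% confidence interval −0.08 to 0.89, adjusted p = 0.226). In intron 2 of LRP6 (chr12:12240759-12241546) the heights were 0.531, 0.929 and 0.773 against 0.707, 0.667 and 1.22, which overlapped (log2 change 0.20, interval −0.30 to 0.70, adjusted p = 0.608). JAK2 had no shared region apart from its start.

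The other 70 regions of the 9 genes were called in part of the libraries, 49 (70%) in more MyoD-deleted than vector libraries, where 61.7% of all partly called regions were, and 19 (27.1%, against 29.7%) in more vector libraries. A single library called 21 of them (30%), against 35.3% of all partly called regions. Called in all 3 MyoD-deleted and no vector library, and here termed gained, were 7 of 121 (5.79%), against 4.56% of all regions. Lost, the reverse, were 4 (3.31%), against 1.78%. These are calls and carry no test. The lists held 73745 to 80608 peaks in MyoD-deleted and 63140 to 74121 in vector libraries, ranges that overlap slightly. When every list was reduced to the 63140 strongest peaks, 2 of the 7 gained regions and all 4 lost regions kept their pattern. With MyoD-deleted replicate 1, MyoD-deleted replicate 3 or vector replicate 1 left out, the gained count was 13, 12 and 11. The rule then covers fewer libraries, so an omission could not lower the gained or lost count.

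**Figure D4:**
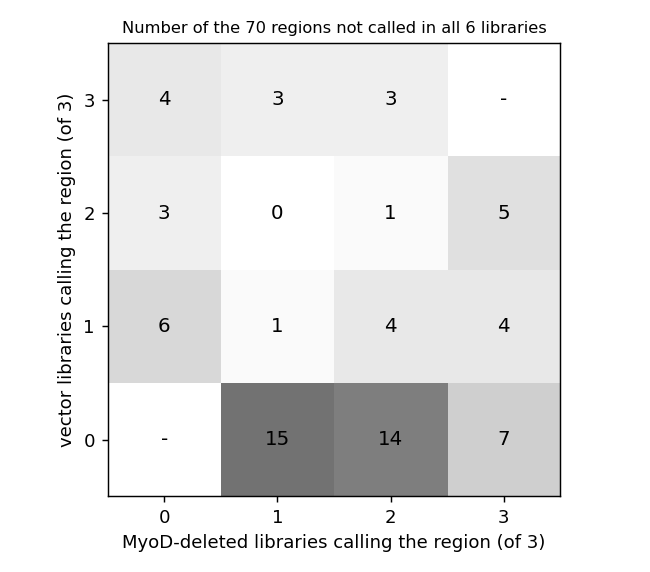
Number of regions of the 9 genes by how many of the 3 MyoD-deleted libraries (x axis) and of the 3 vector libraries (y axis) call them, for the 70 regions not called in all 6. The largest cells are regions called in 1 (15 regions) or 2 (14 regions) MyoD-deleted libraries and no vector library, and the corners hold the 7 gained and 4 lost regions.

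Gained regions were small, with 11 to 24 fragments at the summit and heights of 0.176 to 0.364 times the median, close to the lowest peaks a library called. PPARG had its only region here, 59.3 kb upstream (chr3:12227894-12228310), at 0.293, 0.288 and 0.250 in MyoD-deleted replicates 1, 2 and 3. LRP6 gained 2, one in its intron 3, where the BCL2L14 annotation also runs (chr12:12194311-12194891, 0.276, 0.364 and 0.324), and one 27.7 kb upstream (chr12:12294591-12295178, 0.276, 0.273 and 0.235). The PPARG region and the intronic LRP6 region were the 2 that kept their pattern in lists of equal length.

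RAPGEF2 gained 2 as well, in its intron 4 (chr4:159227734-159228360, 0.207, 0.348 and 0.176), beginning 56 bases downstream of an inner RefSeq start at 159227678, and 265.6 kb downstream (chr4:159368450-159368782, 0.276, 0.273 and 0.176). OPTN gained 1 in an intron of CCDC3, 11.4 kb upstream (chr10:13087752-13088489, 0.241, 0.258 and 0.206), and GADD45A 1 at 94.6 kb upstream (chr1:67590424-67590925, 0.190, 0.364 and 0.235). In lists of equal length these 4 were called in 1 or 2 MyoD-deleted libraries.

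Lost regions were taller, with 18 to 89 fragments and heights of 0.318 to 1.12. Peaks are called over local background, and a peak must be taller to be called where that is high. The local background was 7.23 to 18.7 fragments in vector libraries at the 2 lost GADD45A regions. At the gained GADD45A region it was 2.27 to 2.56 in MyoD-deleted libraries. A missing call at the lost GADD45A regions thus allows a taller uncalled site. In vector replicates 1, 2 and 3 the background was lower at the lost JAK2 region, at 4.34, 3.62 and 4.39. At the lost RAPGEF2 region it was 3.41, 2.22 and 2.74. GADD45A lost 2, at 118 kb upstream (chr1:67566828-67567401, 1.10, 0.625 and 0.439 in vector replicates 1, 2 and 3) and at 19.4 kb downstream over an untranslated exon of GNG12 (chr1:67704240-67704764, 0.963, 1.12 and 0.879). JAK2 lost its region 4.94 kb upstream (chr9:4979187-4979756, 0.494, 0.607 and 0.667). RAPGEF2 lost 1 at 1027 kb downstream (chr4:160128916-160130073, 0.395, 0.321 and 0.318).

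The E boxes and the AP-1 and TEAD letters were then counted by direction. Within 100 bases of the summit, CAGCTG was present in 43 of the 121 regions (35.5%, against 25.1% of all regions), CAGGTG in 13 (10.7%, against 15.9%), AP-1 in 27 (22.3%, against 17.9%) and GGAATG in 26 (21.5%, against 17.3%). All 10 regions lower by height held CAGCTG, where 57.1% of all regions lower by height did. The 4 lost regions held either CAGCTG (both GADD45A regions) or CAGGTG (JAK2 and RAPGEF2), so that each of the 14 lower or lost regions had one of these E boxes, against 73.1% of all lower or lost regions and 35 of the 93 regions of these genes in neither class. Of the 14 higher or gained regions, 2 (14.3%) held an E box, against 20.9% of all higher or gained regions. Both were CAGCTG at CDKN1B. AP-1 or GGAATG was present in 9 of the 14 (64.3%), against 48.2% of all higher or gained regions. The latter letters were also in 4 of the 14 lower or lost regions (28.6%, against 27.7%). With a search of 50 bases on each side, an E box was present in 8 of the 14 lower or lost regions (57.1%, against 46.8%), and AP-1 or GGAATG in 5 of the 14 higher or gained ones (35.7%, against 29.3%). No test was made of these counts.

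The other 70 primer-listed death genes, which the study chose partly for raised transcripts in MyoD-deleted cells and which are therefore no independent evidence of a direction, had 735 regions, 325 of them shared. By height 61 (18.8%) were higher and 40 (12.3%) lower, against 11.4% and 12.8% of all shared regions. Another 57 (7.76%) were gained and 16 (2.18%) lost, against 4.56% and 1.78% of all regions. The differences in share were not tested. These genes too differed from one another. F3, which encodes tissue factor, had 6 higher and 0 lower among 11 shared regions, and NRP1, a semaphorin and VEGF co-receptor, 5 higher and 0 lower among 12. CTTN, the actin-binding protein cortactin, had 1 higher and 17 lower among 29, and GLI2, a Hedgehog transcription factor, 4 and 3 among 23. HMGA2, an architectural chromatin protein, had 4 and 4 among 18. Gained and lost regions numbered 3 and 0 at F3 and 3 and 2 at NRP1. They numbered 2 and 3 at CTTN, 2 and 1 at GLI2, and 1 and 0 at HMGA2. Of the family relatives of the 9 genes (20 genes, 97 shared regions), 11 regions (11.3%) were higher and 16 (16.5%) lower. Over all shared regions these shares were 11.4% and 12.8%.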

How the data were processed

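ATAC-seq of 3 vector and 3 MyoD-deleted RH30 libraries was analysed, grouped by the sample labels. According to the methods and labels, the authors used Rsubread to place read pairs on hg38 and called peaks with MACS2, 1 list per library. The processing notes also name bcl2fastq 2.20 and FastQC. The deposited score is −log10 q times 10, the deposited fold enrichment is a ratio to local background within a library, and the deposited −log10 p and −log10 q belong to the summit. None is normalized between libraries, and read totals are unknown. 1 mitochondrial peak per library was left out.

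Pileup and background were recovered from fold enrichment and −log10 p under a Poisson model (100% of peaks). Height was the log2 ratio of pileup to the smallest background in that library, centred on the median shared region. Height and the inverse-normal rank of fold enrichment were compared with limma 3.58.1 (R 4.3.3, eBayes with a trend), Benjamini-Hochberg adjusted over 47885 regions; adjusted p-values measure the spread between these libraries only. The steps were tested on simulated data. Alternatives were a stricter peak threshold (−log10 q from 5), equal peak numbers, peaks covering 50% of a region, each library left out, a replicate block, regions in at least 2 libraries per group, no centring, ranks of −log10 p, assignment by gene body with 5 kb upstream, and a 50-base motif search.

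The genes and lists were chosen with earlier results of these data known. The text names each 5′ region within 2 kb, each gained, lost or called region and, without a called one, the largest height change, and the 5 genes of other lists with the most called, gained or lost regions. Sequences and motifs come from hg38. The window of 1 lost region in an untranslated exon, the tallest lost region of GADD45A, is not shown, and its other lost region is given instead. RefSeq starts are those of GRCh38.p14, and those of GADD45A and LRP6 were not used here. Python 3.11.15, pysam 0.24.0, samtools 1.23.1 and bedtools 2.31.1 were used.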

Additional observations from a re-analysis of the deposited data

How the results depend on the processing

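Of 17 regions called by height, 8 passed in all 6 omissions of a library: 4 of GADD45A, 3 of RHOB and that of RAPGEF2. Without centring, 13 passed in the same direction. Over the omissions, regions higher by height numbered 3 to 7, lower 7 to 11, higher by rank 1 to 3 and lower by rank 2 to 3. Gained regions numbered 7 to 13 and lost regions 4 to 6, counts that an omission could not lower because the rule then covers fewer libraries. With peaks covering 50% of a region, 4 were higher by height and 0 by rank, and with lists of equal length 2 were gained. Over the 29 regions in or 5 kb upstream of the genes, 0 were higher and 0 lower by height, 0 higher and 1 lower by rank, 2 gained and 1 lost. Without centring 11 were higher and 6 lower by height, and by rank of −log10 p 5 were higher and 7 lower. A 50-base search gave CAGCTG in 26, CAGGTG in 7, AP-1 in 14 and GGAATG in 13 regions. Of the named regions, signs turned for these starts: GADD45A without centring (0.126), JAK2 at a −log10 q of at least 5 (0.0242), with equal lists (0.00892) and without centring (0.189), and by omission of a library the starts of RHOB (−0.0869 to 0.087), JAK2 (−0.0436 to 0.0564) and LRP6 (−0.0229 to 0.204), with RHOB also at −0.0702 and JAK2 at 0.00608 and 0.0217. Replicate numbers did not pair the libraries (correlations of deviations −0.0401, −0.203 and 0.0925). With a replicate block, 6 regions were higher and 10 lower by height, 2 higher and 3 lower by rank, and of the calls by height only CDKN1B at 29.4 kb upstream was lost (adjusted p = 0.0712). The cause was not tested. The lowest called heights of 0.118 to 0.143 limit what a missing call can show, and the limit is higher where local background is high.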
